A study of Mus musculus with 2 samples.

Results

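Itm2a, Thrsp, Pltp, Apoe, Cdkn1c, Cyp4b1 and Gas6 are 7 of the 18309 genes listed for the normal and tumor endothelial cells of the mouse mammary gland. They were chosen by their measured values, namely for having some of the lowest ratios of tumor endothelial cells (TECs) over normal endothelial cells (NECs), and they hold 7 of the 10 lowest ranks among 2087 genes with at least 100 counts per 1000000 UMIs (CPM) in 1 library and 10 UMIs in each, a UMI being a barcode that marks 1 captured RNA molecule. Another 15 genes of at least 100 CPM in NECs had under 10 UMIs in TECs and 5 were not listed for TECs, and these were not ranked. The low ratio itself is therefore a description and not a finding. What follows is which normal vessel types held each gene, and how the TEC level stood beside each of those types and beside TECs that carry the same vessel markers.

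The NECs were CD45-/CD31+ cells sorted from pooled normal mammary glands of C57BL/6 mice aged 6 to 8 weeks, and the TECs were CD45-/CD31+ cells sorted from pooled E0771 tumors, grown by orthotopic implantation of a mouse mammary carcinoma line. Neither group carries a transgene or a drug treatment in its labels, and the labels give no strain or age for the tumor-bearing mice. By the methods, mice were female, aged 8 weeks and on a C57BL/6 background. Some labels of the normal library also name TECs and E0771, while its title and the series' design give normal endothelium, and it was read so. Each condition is 1 library of pooled tissue, so tumor, library and preparation cannot be told apart and no test was made.

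Cells were kept with at least 200 genes, under 10% mitochondrial UMIs, no UMI of Ptprc, Myh11, Epcam or Cspg4 and at least 1 UMI of Cdh5 or Pecam1, which encode VE-cadherin and CD31. In the tumor library the UMIs of Cdh5 and Pecam1 also had to outnumber those of the cancer-cell genes Rhox5, Hmga2 and Krt8. This left 4940 of 9047 barcodes in the NEC library (median depth 2976.5 UMIs) and 261 of 704 in the TEC library (median depth 16989 UMIs). The libraries shared 3 barcodes. All intervals are at 95% and cover counting error alone.

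Capillary, arterial and venous endothelial cells differ in the lipids they take up, in the forces they bear and in the factors they release, and single-cell profiles separate them by such programs. Of the 7 genes, Apoe encodes the apolipoprotein that carries cholesterol-rich particles to their receptors, and Pltp the phospholipid transfer protein that remodels high-density lipoprotein. Thrsp, also called Spot14, is a nuclear protein of lipogenic tissues, and Cyp4b1 is a cytochrome P450 that oxidizes fatty acids and foreign compounds. Gas6 is the vitamin K-dependent ligand of the receptors Tyro3, Axl and Mertk. Cdkn1c encodes p57, an imprinted inhibitor of cyclin-dependent kinases, and Itm2a is a type II membrane protein with a BRICHOS domain.

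The 7 genes lie apart on the genome except that 3 share chromosome 7. In GRCm38 with GENCODE M21, Itm2a spans chrX:107397099-107403376, Thrsp chr7:97412938-97417730, Pltp chr2:164839518-164857711, Apoe chr7:19696109-19699188, Cdkn1c chr7:143458339-143461050, Cyp4b1 chr4:115624725-115647723 and Gas6 chr8:13465374-13494490. All are transcribed from the minus strand.

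Upstream sequences are shown with CACCC-type letters marked, the type of site that the endothelial factors Klf2 and Klf4 bind. For each of 5 genes 120 bases are printed from RefSeq (build GRCm38.p6, minus strand, 5′ to 3′), ending just before the outer of the RefSeq and GENCODE starts, with CACCC or its reverse complement in capitals. Cdkn1c and Thrsp are not shown, the first having no entry in the promoter table used here and the second a RefSeq start 180 bases inside the GENCODE gene. Of 32851 RefSeq promoter windows of this length before the RefSeq start, 31.7% hold at least 1 such match on either strand and 7.70% hold 2 or more. A match is letters in a window, not a bound site.
Itm2a, chrX:107403377-107403496: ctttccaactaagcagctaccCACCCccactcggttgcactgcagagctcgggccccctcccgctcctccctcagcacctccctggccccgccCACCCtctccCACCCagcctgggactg
Pltp, chr2:164857712-164857831: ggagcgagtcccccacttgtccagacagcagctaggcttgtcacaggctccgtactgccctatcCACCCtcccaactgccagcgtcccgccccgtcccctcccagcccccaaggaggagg
Apoe, chr7:19699189-19699308: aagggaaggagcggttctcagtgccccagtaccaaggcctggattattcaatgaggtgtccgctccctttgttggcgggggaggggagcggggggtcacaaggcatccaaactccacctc
Cyp4b1, chr4:115647724-115647843: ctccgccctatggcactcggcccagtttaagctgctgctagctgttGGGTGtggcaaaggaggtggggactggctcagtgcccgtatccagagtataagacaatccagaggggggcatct
Gas6, chr8:13494536-13494655: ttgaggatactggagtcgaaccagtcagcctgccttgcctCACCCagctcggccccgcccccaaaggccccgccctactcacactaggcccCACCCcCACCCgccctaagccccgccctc

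Itm2a and Gas6 each held 3 matches, Pltp and Cyp4b1 held 1 each, and Apoe held 0. In the 250 bases before the RefSeq start Itm2a held 5, Gas6 and Apoe 3 each, and Pltp and Cyp4b1 1 each. Of all promoter windows of 250 bases 52.0% held at least 1. The letters TGTTTAC and TATAAA were also searched and had 0 matches in 250 bases for each gene shown. Whether any match or factor has a part in the member levels was not tested. Klf4 was at 809.8 CPM in NECs and 114 CPM in TECs, a log2 ratio of -2.82 (-2.95 to -2.70), and Klf2 was at 1523 and 679.7 CPM, a log2 ratio of -1.16 (-1.22 to -1.11).

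Each member was far lower in TECs than in NECs. Itm2a was at 274 CPM in NECs (Poisson interval 266 to 282) and 2.58 CPM in TECs (1.33 to 4.51), a log2 ratio of -6.73 with an exact conditional interval of -7.68 to -5.92. Thrsp was at 240.1 and 2.80 CPM (log2 -6.42, -7.33 to -5.65), and Pltp at 339.6 and 4.30 CPM (-6.30, -7.01 to -5.67). All 7 members, 100% of them by choice, passed a log2 ratio of -2 or lower, which 133 of the 2087 genes did, or 6.37%. The rule used this contrast, so nothing is read from that count.

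Apoe had the most UMIs of the members in TECs, 121 at 26.0 CPM (21.6 to 31.1) against 1208 CPM in NECs, a log2 ratio of -5.54 (-5.81 to -5.28). Cdkn1c was at 169.8 CPM in NECs and 3.87 CPM in TECs (-5.45, -6.21 to -4.79), and Cyp4b1 at 148 and 3.87 CPM (-5.26, -6.02 to -4.60). Gas6 was at 315 and 9.47 CPM (-5.06, -5.52 to -4.63). Gas6, in 10th place, was the last member inside the 10 lowest ranks, and the next gene outside them, Nr4a2, had a log2 ratio of -4.81. The other 3 of those 10 were Lpl (-5.94), Rgs5 (-5.26) and Tcf15 (-5.20). At NEC levels the TECs would have held 1272 Itm2a UMIs and 1465 Gas6 UMIs, where 12 and 44 were counted.

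Few TECs carried the members at all. An Itm2a UMI was present in 3 of 261 TECs and in 21.6% of NECs, and 9 of the 12 Itm2a UMIs of the TECs came from 1 cell of the tip-like cluster. Without that cell the TEC level was 0.651 CPM (0.134 to 1.90). After every cell had been thinned to 1900 UMIs, which left out 1109 shallower NECs and 22 TECs, Apoe was detected in 64.6% of NECs and 4.60% of TECs, Gas6 in 42.6% and 3.77%, and Pltp in 39.4% and 0.418%. The thinned shares were 33.2% and 0.418% for Thrsp, 21.4% and 1.67% for Cyp4b1, 21.2% and 1.26% for Cdkn1c, and 19.2% and 0.418% for Itm2a. At this depth 77.1% of NECs had UMIs of at least 2 members, against 1.67% of TECs, and 89.1% of TECs had a UMI of none of the 7, against 4.70% of NECs.

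**Figure D1:**
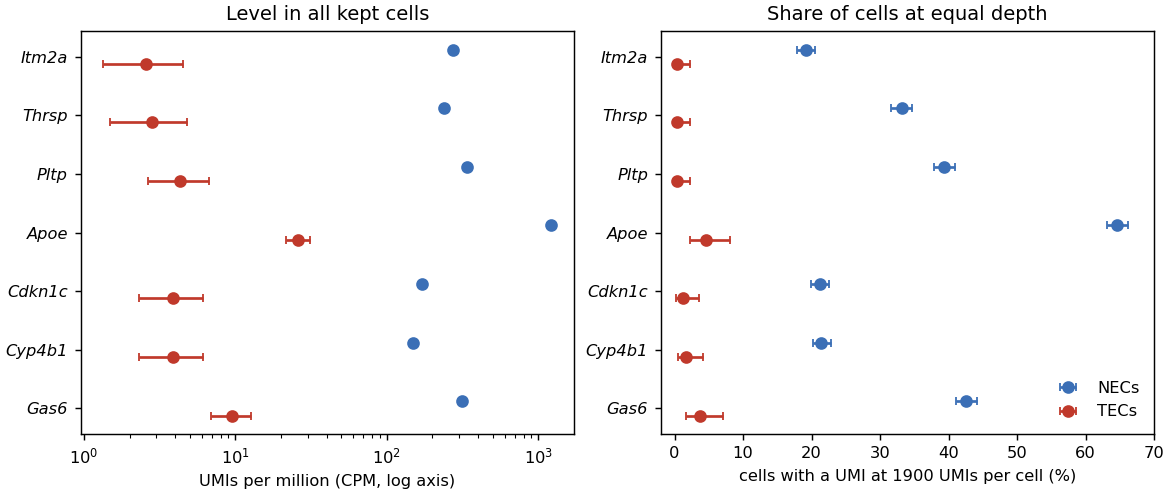
Levels of the 7 members in the 2 libraries (left, CPM on a log axis with Poisson 95% intervals) and the share of cells with a UMI after thinning to 1900 UMIs per cell (right, with Clopper-Pearson 95% intervals). NEC levels run from 148 to 1208 CPM and TEC levels from 2.58 to 26.0 CPM, with no overlap for any member.

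To see which vessels held each gene, the NECs were clustered with the members and their pathway genes left out, and clusters were named by marker lists. The capillary-like class held 1365 cells, the arterial-like 667, the venous-like 461, the class like high endothelial venules (HEV-like) 92, the tip-like 62 and the mitotic-like 30. Other clusters did not meet the rule for a vessel name and are called by their leading genes, among them 2 with Penk, Pacsin1 and Gm5 (Penk clusters, 517 cells) and 2 with Meis2 (Meis2 clusters, 1020 cells). Cluster 5 (357 cells) was led by heat shock and immediate early genes together with the capillary genes Car8 and Lpl, and cluster 9 (211 cells) by metallothioneins and the adipocyte genes Car3 and Cfd.

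Of the 7, Itm2a had the largest share of its UMIs in 1 class. In the Penk clusters it was at 1374 CPM (1329 to 1420), present in 90.1% of cells, and these 10.5% of NECs held 73.9% of its UMIs. Among classes of at least 50 cells the Meis2 clusters came next at 233 CPM (217 to 249), with 17.7% of the UMIs. In the capillary-like class it was at 8.84 CPM (5.92 to 12.7), in the arterial-like class at 12.6 CPM (8.40 to 18.3), in the tip-like class at 6.17 CPM (0.747 to 22.3) and in the venous-like class at 27.8 CPM (21.2 to 35.8). The intervals of the capillary-like, arterial-like and tip-like classes overlapped each other. The mitotic-like class, at 257 CPM (201 to 323), overlapped with the Meis2 clusters.

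Thrsp and Pltp led in the Meis2 clusters without being confined to them. Thrsp was at 443 CPM there (422 to 466), at 366 CPM (343 to 390) in the Penk clusters and at 242 CPM (225 to 259) in the capillary-like class, and it was lowest in the venous-like and HEV-like classes, at 61.1 CPM (51.1 to 72.5) and 52.3 CPM (37.4 to 71.2), which did not differ beyond their intervals, and the tip-like class at 86.4 CPM (57.4 to 125) overlapped with both. Pltp was at 754 CPM (726 to 783) in the Meis2 clusters, more than in the venous-like (322 CPM, 298 to 347) and capillary-like classes (302 CPM, 284 to 322), which again overlapped. Its lowest levels were in the arterial-like class (95.7 CPM, 83.3 to 109.5), the tip-like class (83.3 CPM, 54.9 to 121) and the mitotic-like class (66.8 CPM, 40.2 to 104), which overlapped.

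Among the named classes Apoe was highest in veins and capillaries. The HEV-like class had 3292 CPM (3164 to 3423), the venous-like class 2264 CPM (2201 to 2329) and the capillary-like class 1522 CPM (1480 to 1565), and none of these intervals overlapped. Its lowest levels were in the Penk clusters, at 167 CPM (151 to 184), where Itm2a was highest, and in the mitotic-like class, at 179 CPM. Within the capillary-like class, cluster 1, led by Cldn15 and Aqp7, had 2157 CPM and cluster 0, led by Car8 and Timp4, had 967 CPM.

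Cdkn1c was highest in capillary cells. The capillary-like class had 473 CPM (449 to 497) and 52.7% of its UMIs, and cluster 5 did not differ from it at 479.7 CPM (434 to 528). Of the other named classes the arterial-like followed at 172 CPM (155 to 189.8), and the level was 44.9 CPM in the venous-like class, 31.7 CPM in the Penk clusters and 10.5 CPM (4.52 to 20.6) in the HEV-like class. The mitotic-like class had 24.6 CPM (9.89 to 50.7) on 7 UMIs of this kinase inhibitor.

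Among the named classes Cyp4b1 was highest in the tip-like at 364 CPM (301 to 436), followed by the capillary-like class at 261 CPM (243 to 279) and the venous-like class at 241 CPM (221 to 262). It was at 96.2 CPM in the arterial-like class and at 17.6 CPM (12.9 to 23.6) and 11.8 CPM (5.38 to 22.3) in the Penk clusters and HEV-like class, which overlapped. Within the capillary-like class, cluster 1 had 379 CPM and cluster 0 had 157 CPM, the same order as for Apoe.

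Gas6 was shared by arterial, venous and capillary cells. It was at 473 CPM (451 to 496) in the Meis2 clusters and at 343, 341 and 316 CPM in the arterial-like, venous-like and capillary-like classes, whose intervals overlapped. The lowest level was in the HEV-like class at 49.7 CPM (35.2 to 68.2). The 2 capillary-like clusters differed more than these 3 classes did, with 479 CPM in capillary-like cluster 0 and 129 CPM in capillary-like cluster 1, the reverse of the order for Apoe and Cyp4b1.

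**Figure D2:**
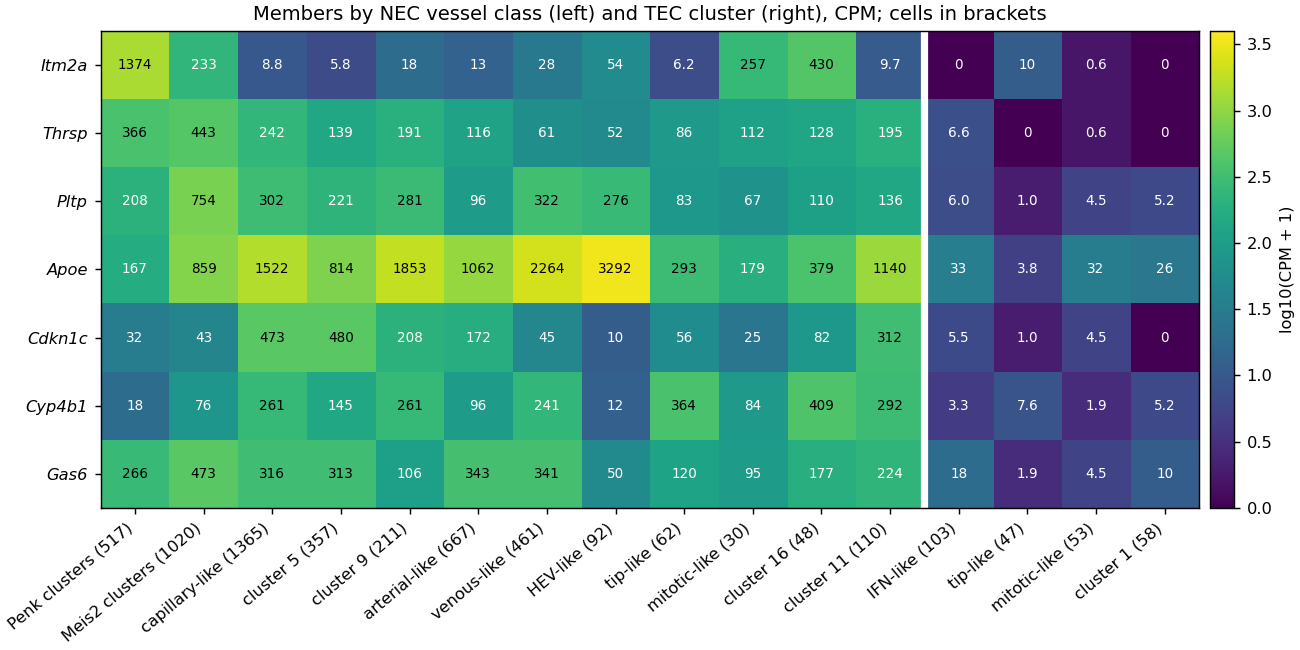
Summed CPM of each member (rows) in each NEC vessel class or unnamed cluster and, right of the white line, in each TEC cluster, with the color on a log10(CPM + 1) scale and the number of cells in brackets. Itm2a peaks in the Penk clusters at 1374 CPM, Cdkn1c in the capillary-like class and cluster 5 at 473 and 479.7 CPM and Apoe in the HEV-like class at 3292 CPM, while TEC clusters run from 0 to 33.3 CPM.

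Over the 16 NEC clusters of at least 50 cells the members did not form 1 pattern. Itm2a and Cyp4b1 ran the most opposite ways, with a Pearson r of -0.73 for log2(CPM + 10), and Itm2a and Cdkn1c had -0.63, while Itm2a and Thrsp (0.56) and Cdkn1c and Cyp4b1 (0.55) had the highest values of the 21 pairs. These clusters come from 1 library, and r is given as a description. In single NECs at 1900 UMIs, Thrsp was detected in 48.1% of cells with an Itm2a UMI and 29.6% of those without, and Cdkn1c in 5.86% and 24.9%.

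Low as the TEC levels were, they were compared with each normal type in turn. By arithmetic no mix of these types has a level under that of its lowest type. Of 12 NEC classes and unnamed clusters of at least 50 cells, all had a higher level than TECs for all 7 members, and for 6 members the interval of the ratio to the lowest one lay under 0. Of all 2087 ranked genes 16.1% were below every class in TECs, and 8.53% had such an interval under 0. Since the members were chosen on this contrast, the counts and ratios describe them and test nothing.

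The distance to the lowest type was large for Pltp and Thrsp. The log2 ratio of TECs over the tip-like class was -4.27 (-5.19 to -3.39) for Pltp, and over the HEV-like class it was -4.22 (-5.25 to -3.29) for Thrsp. With single clusters in place of classes these distances were smaller. For Thrsp the lowest was cluster 12, part of the venous-like class, at 22.0 CPM (ratio -2.97, -4.28 to -1.62). For Pltp it was cluster 10, part of the arterial-like class, at 67.9 CPM (-3.98, -4.79 to -3.23). For Apoe the lowest was a Penk cluster at 164 CPM, 2.65 log2 units above TECs (ratio -2.65, -2.98 to -2.33), and for Gas6 the HEV-like class gave -2.39 (-3.05 to -1.73).

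Itm2a, Cyp4b1 and Cdkn1c stood closer to their lowest types. Over the HEV-like class the ratio was -1.60 (-2.83 to -0.27) for Cyp4b1 and -1.43 (-2.71 to -0.02) for Cdkn1c, and for Itm2a it was -1.18 over cluster 5 with an interval that includes 0 (-2.78 to 0.68). These lowest levels were also near those in barcodes of another cell type. In 698 barcodes of the NEC library with an Epcam UMI and no Cdh5 or Pecam1 UMI, at a median of 10806 UMIs, Itm2a was at 4.53 CPM (3.26 to 6.12) and present in 4.01% of barcodes. Cyp4b1 was at 5.61 CPM there and Cdkn1c at 7.22 CPM (5.60 to 9.18), within the HEV-like interval. Outside the Penk clusters NECs had 83.7 CPM of Itm2a, and outside both Penk and Meis2 clusters 35.4 CPM (32.0 to 39.0) on 395 UMIs. The log2 ratio of TECs over the latter was -3.78 (-4.74 to -2.95). Of those 395 UMIs, 141 lay in the 48 cells of cluster 16 and 73 in the 30 mitotic-like cells. Cluster 16 also carried pericyte and fibroblast genes. The capillary-like, arterial-like and tip-like classes, at 8.84, 12.6 and 6.17 CPM, were closer to the TEC level than this ratio gives. Thrsp and Pltp were at 4.64 and 7.98 CPM in the Epcam barcodes, against 52.3 and 83.3 CPM in their lowest vessel classes. Apoe at 416 CPM and Gas6 at 155 CPM were high there, above their lowest vessel types, so the Epcam barcodes are no background for these genes. The Epcam barcodes were also deeper than cluster 5 (median 2187 UMIs) and the HEV-like class (median 5712.5 UMIs). A background level at equal depth was not measured for any member.

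**Figure D3:**
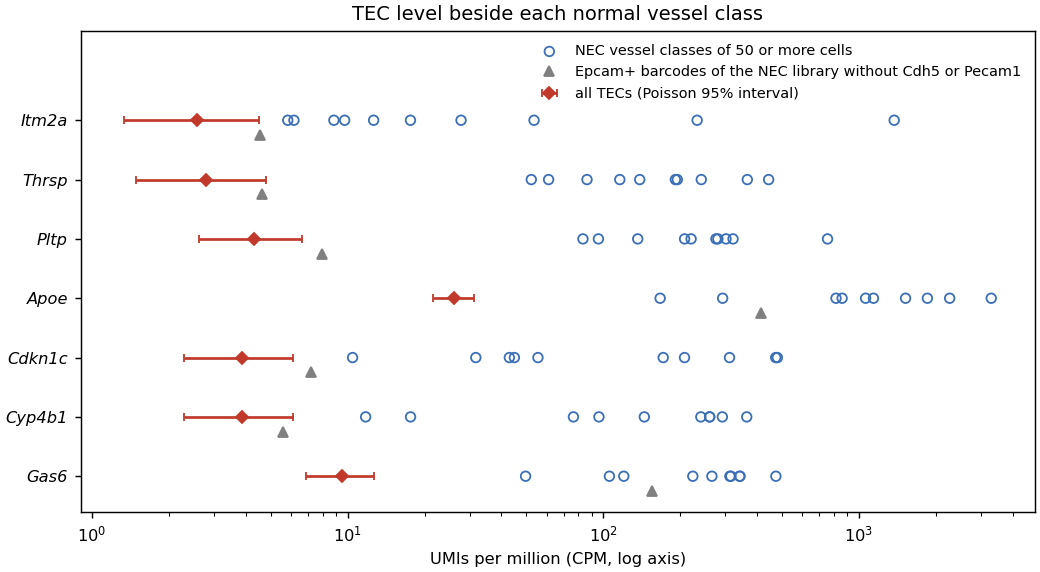
Each member's CPM (log axis) in the NEC classes and unnamed clusters of at least 50 cells (open circles, Penk and Meis2 clusters each merged), in all TECs (diamonds with Poisson 95% intervals) and in Epcam+ barcodes of the NEC library without endothelial UMIs (triangles). The diamonds lie left of every circle, and for Itm2a the interval of 1.33 to 4.51 CPM comes close to the lowest circle at 5.84 CPM.

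The same question was put to cells with like vessel markers. Each cell of at least 1900 UMIs was classed by its own arterial, capillary or venous markers at that depth, with 1 rule for both libraries. Of NECs, 51.2% were capillary-marked, 26.7% arterial-marked and 21.8% venous-marked, and of TECs 33.5%, 15.1% and 46.9%. Within these classes every member had a lower level in TECs, 21 of 21 comparisons, where 44.4% of all pairs of a ranked gene and a class were lower and 37.2% of ranked genes were lower in all 3 classes. The choice of members nearly fixes that count, and nothing is read from it. In venous-marked cells Apoe was at 1784 CPM in 837 NECs and 23.2 CPM in 112 TECs (log2 -6.27, -6.68 to -5.88), and in capillary-marked cells Cdkn1c was at 188 CPM in NECs and had 4 UMIs in TECs (log2 -6.12). Thrsp in capillary-marked cells was at 311 CPM and had 1 UMI in 80 TECs (-8.84, -14.1 to -6.36), but with another thinning seed it had 4 UMIs (-6.98) and with at least 3 markers 8 UMIs (-6.57).

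Itm2a had 0 UMIs in the 112 venous-marked and in the 36 arterial-marked TECs, with the upper end of the interval of the log2 ratio at -7.52 and -4.94. The marked NECs beside them were at 291 and 190 CPM, against 27.8 and 12.6 CPM in the venous-like and arterial-like classes. For Itm2a these ratios therefore do not compare TECs with venous-like or arterial-like NECs. Other members had such gaps too. Thrsp was at 154 CPM in venous-marked and 61.1 CPM in venous-like NECs, and Pltp at 224 CPM in arterial-marked and 95.7 CPM in arterial-like NECs. Cdkn1c was at 188 CPM in capillary-marked and 473 CPM in capillary-like NECs. Gas6 was close, at 362 and 343 CPM in arterial-marked and arterial-like NECs. Ratios in marked cells are thus not ratios within a named class. The 12 Itm2a UMIs of TECs were in capillary-marked cells, 9 of them in 1 cell whose class depended on the rule. With at least 1 marker arterial-marked TECs held 9 Itm2a UMIs (-4.31), and with at least 3 markers capillary-marked TECs held 2 (-8.96). The smallest ratio was that of Gas6 in arterial-marked cells, at 362 CPM in NECs and 15 UMIs in TECs (-3.85, -4.70 to -3.13). When the levels of the marked NEC classes were weighted by the share of TECs in each class, the NEC level moved by between -0.36 (Cdkn1c) and 0.25 (Apoe) on the log2 scale, and the ratio that remained was between -4.91 for Cdkn1c and -6.78 for Itm2a. For Apoe the reweighted level was the higher one, at 1437 against 1210.2 CPM, because more TECs were venous-marked. A marked class is wider than a cluster. Of 260 cells of a Penk cluster that were deep enough, for instance, 122 were capillary-marked, 85 venous-marked and 53 arterial-marked. Reweighting by marked classes therefore cannot register a loss of the Penk clusters, which held 73.9% of the Itm2a UMIs. The ratio of Itm2a that remained is not a ratio within 1 vessel type.

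Tip-like and mitotic-like clusters were formed in each library alone. Clusters of the same name were not the same in their leading genes, since the tip-like TECs were also led by the hypoxia-responsive genes Egln3, Adm, Ankrd37 and Bnip3 and the tip-like NECs by Apln, Pgf, Nrgn and Mest. Among tip-like cells (62 NECs, 47 TECs) Cyp4b1 was at 364 and 7.62 CPM (log2 -5.58, -6.82 to -4.55), Apoe at 293 and 3.81 CPM (-6.27, -8.17 to -4.86) and Gas6 at 120.3 and 1.90 CPM (-5.98, -9.08 to -4.03). Thrsp, at 86.4 CPM in tip-like NECs, had 0 UMIs in tip-like TECs, with the upper end of the interval at -4.52. Pltp (-6.45) and Cdkn1c (-5.87) had 1 UMI each in tip-like TECs. Itm2a went the other way, at 6.17 CPM on 2 UMIs in NECs and 10.5 CPM on 11 UMIs in TECs, with an interval that includes 0 (0.76, -1.43 to 3.98). Without the 1 TEC with 9 UMIs it was at 1.97 CPM (0.238 to 7.11), so no difference in Itm2a between tip-like cells was detectable.

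In mitotic-like cells (30 NECs, 53 TECs) Apoe was at 179 CPM in NECs and 32.5 CPM in TECs and Cdkn1c at 24.6 and 4.45 CPM, both with a log2 ratio of -2.47 (intervals -3.05 to -1.88 and -4.21 to -0.73). The ratios were -3.91 for Pltp and -4.41 for Gas6, on 7 TEC UMIs each, and -5.47 (-7.84 to -3.75) for Cyp4b1 on 3. Thrsp (-7.47, -12.8 to -4.88) and Itm2a (-8.66, -14.0 to -6.13) rest on 1 TEC UMI each. Among TEC clusters Gas6 was highest in the interferon-like (IFN-like) cluster of 103 cells at 18.0 CPM (12.4 to 25.3), above the tip-like cluster at 1.90 CPM (0.231 to 6.88). Apoe was at 33.3 CPM in the IFN-like cluster and 32.5 CPM in the mitotic-like cluster, against 3.81 CPM (1.04 to 9.75) in the tip-like cluster. Its UMIs lay in few cells, 61 in 19 of 103 IFN-like, 51 in 7 of 53 mitotic-like and 4 in 4 of 47 tip-like TECs. In all TECs 1 cell held 28 of the 121 Apoe UMIs. The intervals of Apoe do not cover this spread between cells, so these are not levels of the cluster as a whole. An unnamed cluster of 58 TECs was shallow, with a median of 2240.5 UMIs, and had at most 5 UMIs of any member.

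**Figure D4:**
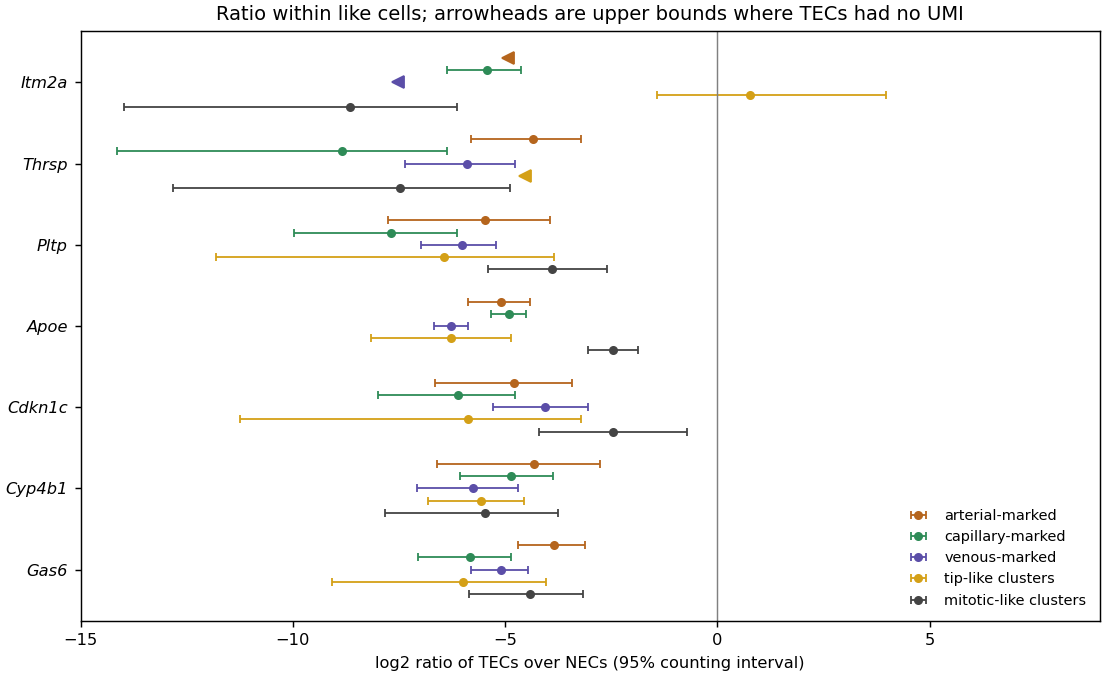
Log2 ratios of TECs over NECs with exact conditional 95% intervals for each member within cells of like arterial, capillary or venous markers and within the tip-like and mitotic-like clusters. Arrowheads give the upper bound of the interval where TECs had 0 UMIs. All estimates lie under -2 except Itm2a in tip-like cells, at 0.76 with an interval across 0.

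For each member the 3 genes with the most similar pattern over the 16 NEC clusters were taken, whatever their level in TECs. Of these 21 genes 20 were listed in both libraries, and their median log2 ratio of TECs over NECs was -0.73, with 5 at -2 or lower. Over all 2087 ranked genes the median was 0.16. None of the 20 was as low as the member it resembled, a member having been chosen for a low ratio and the others not. That count leaves out Penk, which resembled Itm2a and was at 102.8 CPM in NECs but not listed for TECs, so that it had no ratio. Map2 beside Itm2a, at -6.28, lay within the interval of Itm2a (-7.68 to -5.92). The genes most like Thrsp were Dysf (r = 0.96, log2 -0.76), Fez2 (0.95, -0.71) and Adgrl4 (0.93, -1.06), so that 3 genes with nearly the same spread over normal vessels were within about 1 log2 unit of their normal level. Those most like Pltp were Emcn, which encodes the endothelial sialomucin endomucin (0.84, -0.57), Smagp (0.78, 0.12) and Prkch (0.78, -0.59).

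Genes that resembled Gas6 were split, with Aldh2, the mitochondrial aldehyde dehydrogenase, low in TECs (r = 0.93, log2 -3.34) and Lmf2 (0.90, -0.06) and Myo1c (0.86, -0.20) near their NEC levels. For Cdkn1c they were Ric1 (0.94, -2.22), Bmp6 (0.93, -3.42) and the tight junction gene Tjp1 (0.92, -0.75). For Cyp4b1 they were the endothelial ETS factor Fli1 (0.87, -0.30), Thra (0.85, -2.31) and Ppp2r5a (0.85, -1.04). Apoe had no close match, with 2200002D01Rik (0.72, 2.14) first. The genes most like Itm2a were Map2 (0.97), at 16.7 CPM in NECs and 1 UMI in TECs, Penk (0.96), not listed for TECs, and Gpx8 (0.96), at 41.2 and 36.8 CPM.

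The leading genes of the Penk clusters, which held most of the Itm2a, were low in TECs in part. Of their 20 leading genes 2 were not listed for TECs, 2 were at 0, and the other 16 had a median log2 ratio of -1.82, with 7 at -2 or lower. Esm1 (0.13) and Vwa1 (1.14) were above their NEC level, and Gpx8 was slightly below it (-0.16). The 20 leading genes of the Meis2 clusters had Meis2 at 0 UMIs and a median of -1.79 over the other 19. These medians lie well above the ratios of Itm2a, Thrsp and Pltp, over the same libraries.

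**Figure D5:**
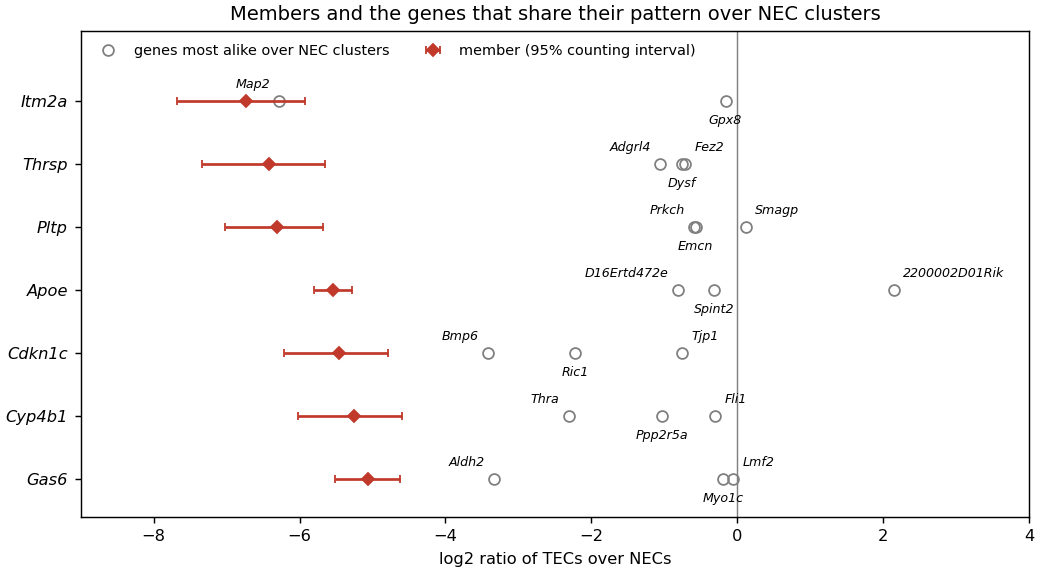
Log2 ratio of TECs over NECs for each member (diamonds, exact conditional 95% interval) and for the genes most alike in pattern over the 16 NEC clusters (open circles, named). The members lie between -6.73 and -5.06, and 15 of the 20 other genes lie above -2, Map2 beside Itm2a being the lowest at -6.28. Penk, alike to Itm2a and not listed for TECs, is not drawn.

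Other genes of the same pathways were counted from lists, for those with at least 20 CPM in 1 library, where 6.08% of all 6873 such genes listed in both libraries were at -2 or lower and 3.43% at 2 or higher. Of 10 genes of lipoprotein handling beside Apoe and Pltp, 5 were at a log2 ratio of -2 or lower and 0 at 2 or higher. Lipoprotein lipase, Lpl, was at 264 and 4.30 CPM (-5.94), the fatty acid receptor Cd36 at 1975 and 243 CPM (-3.02), clusterin, Clu, at 535 and 52.9 CPM (-3.34), and the HDL receptor Scarb1 at 484 and 111 CPM (-2.13). Gpihbp1, which anchors lipoprotein lipase on capillaries, was at 1209.9 CPM in NECs and 1862 CPM in TECs (0.62). The cholesterol exporters Abca1 (-0.17) and Abcg1 (0.59) stayed near their NEC level.

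Of 9 lipogenesis genes beside Thrsp, 1 was past -2, the acetyl-CoA carboxylase gene Acacb (24.2 and 1.72 CPM, -3.82). Mid1ip1, the paralog and partner of Thrsp, was at 38.8 and 28.6 CPM (-0.44). Of 4 genes of the Gas6 pathway, 0 were past -2 in either direction, with the related ligand Pros1 at 92.6 and 56.8 CPM (-0.70) and the receptor Mertk at 37.6 and 14.2 CPM (-1.40). Axl was under the level needed, at 8.43 and 4.52 CPM.

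Of 3 other inhibitors of cyclin-dependent kinases, 0 were past -2. Cdkn1a, which encodes p21, was at 704 and 180.2 CPM (-1.97), just inside, and Cdkn1b, which encodes p27, at 71.2 and 37.7 CPM (-0.92). Of 7 imprinted growth genes 2 were past 2 upwards, Mest (27.5 and 316 CPM, 3.52) and Peg3 (9.23 and 105 CPM, 3.51), and 0 were past -2. Kcnq1ot1, the noncoding RNA of the same imprinted domain as Cdkn1c, was at 132 and 51.2 CPM (-1.36).

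Among 6 genes of the cytochrome P450 list 3 were past -2, Cyp26b1, which degrades retinoic acid (48.1 and 3.01 CPM), the epoxide hydrolase Ephx1 (-3.89) and Cyp2d22 (-2.12). Por, the reductase that P450 enzymes need, was at 30.9 and 25.2 CPM (-0.30). Of the other family members of Itm2a, Itm2b was at 3340.5 and 2101 CPM (-0.67) and Itm2c at 139 and 609 CPM, a log2 ratio of 2.14 (2.06 to 2.22), the opposite direction to Itm2a.

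Markers of other cell types were measured beside the members. The summed level of 9 adipocyte genes, for cells in which Thrsp and Lpl are also high, was 260 CPM in NECs and 18.3 CPM in TECs, where Cfd and Car3 were at 0, 5 genes with Adipoq among them were not listed, and Lipe gave 18.1 CPM. Within NECs the adipocyte sum was 873 CPM in cluster 9, where Thrsp was at 191 CPM, and 181 CPM in the Meis2 clusters, where Thrsp was at 443 CPM. Of 8 pericyte genes the sum was 162 CPM in NECs and 44.3 CPM in TECs. Kcnj8 (22.8 CPM in TECs, log2 1.70) and Abcc9 (16.1 CPM, 0.68) were higher in TECs, and the other pericyte genes were lower. The pericyte sum reached 3886 CPM in cluster 16, a cluster of 48 cells with pericyte and fibroblast genes where Cyp4b1 was at 409 CPM and Itm2a at 430.5 CPM. Cluster 16 held 2.97% of the Itm2a UMIs and 5.21% of the Cyp4b1 UMIs. The 9 macrophage genes, in cells that also make Apoe, summed to 17.3 CPM in NECs and 21.7 CPM in TECs, of which Fcer1g gave 11.8 CPM. Tyrobp was higher in TECs (log2 1.66, 0.36 to 2.93) and Lyz2 lower (-1.67, -3.16 to -0.47). Cd68, C1qa, C1qb, C1qc and Fcer1g had higher estimates in TECs with intervals that include 0. Adgre1 and Csf1r, with 1 and 3 UMIs in NECs, were at 0 in TECs. Smooth muscle genes summed to 199.97 CPM in NECs and 60.1 CPM in TECs, fibroblast genes to 65.2 and 7.32 CPM, and epithelial genes, of which 5 of 10 were not listed for TECs, to 148 and 40.7 CPM. The part of the other cell types in the ratios was not tested.

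The vessel markers themselves moved beside the members. Of 15 capillary markers 7 were at -2 or lower with a median of -1.99, of 15 arterial markers 6 with a median of -1.20, and of 12 venous markers 4 with a median of -1.45. Tip markers ran the other way, 8 of 13 at 2 or higher with a median of 2.98, as did 9 of 13 mitotic markers with a median of 3.10. A marked class therefore sorts TECs by markers that were themselves lower, and its part in the ratios was not tested.

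Salivary genes summed to 2264 CPM in NECs, while in TECs 7 of the 8 were not listed and Aqp5 was at 0. They summed to 88607 CPM in cluster 11, which had a median of 798 UMIs and member levels within the range of the other clusters. The immediate early and heat shock list, which sorting and digestion can raise, summed to 10075 CPM in NECs and 2573 CPM in TECs, and its part in the ratios was not tested.

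Among tumor barcodes that passed the gene and mitochondrial limits but were left out, Pltp was the one member with a higher level than in TECs. Barcodes over the mitochondrial limit were not measured. In 195 barcodes without an endothelial UMI, or with as many UMIs of the cancer-cell genes, at a median of 48895 UMIs, Pltp was at 35.9 CPM (32.3 to 39.7) on 371 UMIs and present in 54.9% of barcodes, against 4.30 CPM in TECs. The other 6 members were lower there than in TECs, with Apoe at 1.64 CPM on 17 UMIs, Thrsp on 3 UMIs and Itm2a and Gas6 on 0.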

How the data were processed

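Droplet libraries (10x Genomics) of sorted NECs and TECs were analysed, 1 of each. The authors mapped reads with Cell Ranger to mm10, per the labels, and deposited the counts of UMIs per gene and barcode without normalization. The version and annotation are not given in the sources used here. The members and all lists were chosen with earlier results of these data known. Kept NECs held 17327221 UMIs and kept TECs 4646103, and 95% intervals were Poisson, Clopper-Pearson or exact conditional binomial. Each library was clustered alone in Seurat 5.3.0 (R 4.3.3) with 4000 variable genes less the members and pathway genes, 20 PCs and a resolution of 0.8. A cluster was named when at least 3 list markers were in 25% of its cells at 2-fold or more, with 1 or more among its 10 leading genes. Levels and intervals came from scipy 1.17.1, numpy 2.4.6 and pandas 2.3.3 under Python 3.11.15, plots from matplotlib 3.10.9, and the ratio was checked on simulated data. Scrublet in scanpy 1.11.5 called 0 of 6924 NECs and 0 of 484 TECs. These calls were not relied on and no doublets were removed. Why none was called was not tested. Marked cells were classed by the number of distinct markers of each list relative to its mean over NECs, at least 2, in place of the planned rule of most marker UMIs, a change made after the data were seen. Named genes are the members, the 10 lowest ratios and the next gene, the 3 most alike genes per member, up to 4 genes per list by level and, chosen after their values were seen, further list genes and leading genes of clusters. Alternatives covered cell filters, scaling, thinning, clustering and the class rule. Leaving out the shallow TEC cluster was added after the data were seen, and most marker UMIs was run as an alternative.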

Additional observations from a re-analysis of the deposited data

How the results depend on the processing

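All 7 members were lower in TECs under each of the 11 alternatives run on their ratios. The median of the members' log2 ratios, -5.54 as reported, was -6.51 with under 5% mitochondrial UMIs, -5.92 without the top 5% of Scrublet scores and -4.87 at 1900 UMIs per cell, and the cause was not tested. Under the other 8 alternatives the median stayed within the counting interval of Apoe, the middle member (-5.81 to -5.28). Single members moved more. With the mean over cells of each cell's CPM, Pltp (-5.38), Apoe (-5.27) and Cdkn1c (-6.24) left their own intervals. Over the 11 alternatives Pltp ran from -7.34 to -5.38, Apoe from -6.51 to -4.75, Cyp4b1 from -5.86 to -4.15 and Gas6 from -5.73 to -4.10. Scaling by the median ratio over genes shifts every ratio by 0.13. At 1900 UMIs per cell the TEC values rest on 1 UMI each for Itm2a, Thrsp and Pltp, which is the limit that depth sets. TECs were below every normal class for all 7 members under each clustering tried except 10 PCs, where it was 6 because a cluster had 0 Itm2a UMIs. The interval of Cdkn1c to its lowest class, -0.02 at its upper end, included 0 when Cdh5 and Pecam1 were both required (-1.30, -2.62 to 0.21). The class rule was replaced after the data were seen. By most marker UMIs, the rule first planned, which put 3645 NECs in the capillary class and left 8 arterial TECs, TECs were lower in 21 of 21 comparisons, but the ratio of Cdkn1c in venous cells was -0.29 (-2.17 to 1.35), and for Itm2a and Thrsp in arterial cells, at 0 UMIs in TECs, the interval reached up to 2.13 and 0.06. No paired analysis was possible because each condition has 1 library.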
